A study of Mus musculus with 24 samples.

Results

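AP-1 and immediate early transcription factors were examined in MIN6 cells, a mouse insulinoma line used as a model of the pancreatic β-cell, after exposure to verapamil. The genes were taken by name, with earlier results of these data known, as Jun, Junb, Jund, Fos, Fosb, Fosl2, Atf3, Egr1, Nr4a1 and Nr4a2. Of these 10 symbols, 8 were found among the 12310 genes of the count table, and all 8 passed the filter on low counts that left 12306 genes for testing. Fos and Fosb were not analysed here.

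The study asked how verapamil, a blocker of L-type voltage-gated calcium channels, changed the β-cell transcriptome. Wild-type MIN6 cells in medium with 5.6 mM glucose received 50 µM verapamil for 24 h (12 libraries) or were left untreated for the same 24 h (12 control libraries). No vehicle is named for the controls, all libraries come from 1 cell line, and 24 h after drug addition is the only time point. The labels were read as 4 experiment sets of 3 libraries per group, although the sources differ on whether there were 4 sets of triplicates or 12 independent experiments, so the spread between libraries may in part be technical.

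AP-1 is a family of dimers built from basic leucine zipper proteins of the JUN, FOS and ATF groups, which bind short palindromic DNA sites and set the rate of many growth and stress genes. Immediate early genes are transcribed soon after a stimulus without the need for new protein synthesis, and in β-cells calcium entry through L-type channels is a well-known inducer of several of them, acting through kinases on CREB, SRF and MEF2. EGR1 is a zinc finger factor and the NR4A proteins are orphan nuclear receptors, and both belong to this early response.

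The DNA just upstream of the start sites is shown for 5 of the 8 genes, because the text below sets genes with high, low and changed counts side by side and these windows hold, or lack, the short sites through which CREB, ATF and MEF2 factors are known to act. Letters are RefSeq sequence on GRCm38.p6, read 5′ to 3′ on the strand of the gene and ending at the base before the RefSeq start, or for Atf3 a few bases earlier, where an annotated exon begins. Capitals mark every match, on either strand, to a fixed set of short motifs.
Jun, chr4:95052223-95052472, minus strand: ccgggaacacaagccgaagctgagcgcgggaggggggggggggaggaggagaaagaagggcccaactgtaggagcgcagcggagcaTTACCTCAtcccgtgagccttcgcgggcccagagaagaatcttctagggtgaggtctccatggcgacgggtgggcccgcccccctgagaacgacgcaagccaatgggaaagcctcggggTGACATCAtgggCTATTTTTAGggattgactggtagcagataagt
Nr4a1, chr15:101266596-101266845, plus strand: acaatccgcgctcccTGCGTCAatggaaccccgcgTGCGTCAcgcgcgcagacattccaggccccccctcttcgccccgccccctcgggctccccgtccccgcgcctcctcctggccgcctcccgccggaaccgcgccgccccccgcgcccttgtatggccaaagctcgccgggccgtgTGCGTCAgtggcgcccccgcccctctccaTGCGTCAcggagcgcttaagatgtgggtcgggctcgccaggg
Nr4a2, chr2:57124004-57124253, minus strand: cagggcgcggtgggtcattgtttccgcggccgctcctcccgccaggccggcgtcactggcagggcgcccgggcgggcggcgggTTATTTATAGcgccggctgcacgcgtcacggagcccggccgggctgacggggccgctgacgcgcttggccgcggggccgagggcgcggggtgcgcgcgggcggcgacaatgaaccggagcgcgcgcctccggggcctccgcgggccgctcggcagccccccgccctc
Atf3, chr1:191183341-191183583, minus strand: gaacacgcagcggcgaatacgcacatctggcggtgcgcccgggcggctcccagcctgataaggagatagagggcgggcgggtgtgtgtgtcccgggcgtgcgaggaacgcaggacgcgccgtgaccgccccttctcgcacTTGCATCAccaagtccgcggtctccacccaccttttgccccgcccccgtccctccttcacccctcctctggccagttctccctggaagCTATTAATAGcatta
Junb, chr8:84978749-84978998, minus strand: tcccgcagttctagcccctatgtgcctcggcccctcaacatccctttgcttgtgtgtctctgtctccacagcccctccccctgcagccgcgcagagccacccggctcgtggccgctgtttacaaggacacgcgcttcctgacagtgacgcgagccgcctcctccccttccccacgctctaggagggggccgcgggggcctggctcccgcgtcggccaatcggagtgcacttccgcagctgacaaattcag

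The motifs searched were the cyclic AMP response element TGACGTCA with its variants TGACGCA and TTACGTCA, the jun1-type site TGACATCA, the jun2-type site TTACCTCA, the AP-1 site TGANTCA, the C/EBP-ATF element TGATGNAA, the CArG box bound by SRF and the MEF2 box. In the Jun window, TTACCTCA began 164 bases before the start, TGACATCA 45 bases before it and a MEF2 box 33 bases before it. These letters stand in 0.728%, 2.93% and 2.92% of 32851 annotated promoter windows of 250 bases. The Nr4a1 window held 4 copies of TGACGCA, all on the opposite strand and therefore printed as TGCGTCA, beginning 235, 215, 71 and 42 bases before the start, whereas 1.75% of all windows held any. Nr4a2 had a MEF2 box 167 bases before its start. In Atf3, the C/EBP-ATF element began 110 bases before the start and was on the opposite strand, so that it reads TTGCATCA, and a MEF2 box began 22 bases before the start. The C/EBP-ATF element is found in 3.45% of all windows. Junb had 0 matches in this window. No marked matches overlap each other, and a match is a string of letters, not a measured binding site. The motif list was drawn up with these sequences in view, so the shares of all windows are no test of enrichment.

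Library totals ranged from 21840159 to 44806556 counts in verapamil-treated cells, with a median of 25584562, against 12590476 to 32360171 counts in control cells, with a median of 26642648. Levels are given as CPM (counts of a gene per 1000000 counts of its library). Of 14 markers of β-cells, 12 were tested, and their levels differed widely. Ins2 had a median of 596 CPM in verapamil-treated cells and 1300 CPM in control cells. Mafa had medians of 1290 and 682 CPM in the same order, and Iapp only 1.18 and 2.08 CPM. Of 18 markers of other cell types, 2 were tested, namely the α-cell hormone Gcg and the duct factor Sox9, and their summed level was 177 to 334 CPM in verapamil-treated cells and 176 to 201 CPM in control cells, almost all of it Gcg. The part of these markers in the results was not tested. The verapamil-treated libraries also differed from the controls in base composition. Across genes, the correlation of each library's log2 deviation from the control mean with the GC content of the transcript was 0.0363 to 0.635 in verapamil-treated libraries and −0.178 to 0.156 in control libraries. Experiment sets 2 and 3 had the steepest trends, 0.513 to 0.583 and 0.482 to 0.635 in their verapamil-treated libraries, and only 3 of the 12 verapamil-treated libraries lay inside the control range. The same correlation with transcript length was −0.586 to −0.0379 in verapamil-treated libraries and −0.131 to 0.126 in control libraries. Ribosomal protein genes had a median log2 deviation from the control mean of 0.19 to 0.924 in verapamil-treated libraries and −0.0712 to 0.0838 in control libraries, without overlap. A single verapamil-treated library of set 4 had both the lowest length correlation, −0.586, and the highest ribosomal deviation, 0.924. It also held the lowest Fosl2 and Egr1 values, and without it all 8 genes kept their calls, with log2 fold changes of 1.52 for Fosl2 and −0.58 for Egr1. The part of these signs in the results was not tested.

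Genes of the family changed in both directions after verapamil. By edgeR's quasi-likelihood test with Benjamini-Hochberg adjustment over all genes, 6 of the 8 genes passed an adjusted p of 0.05, beside 62.8% of all genes tested, so the number of calls by itself was close to the background. Fosl2, Atf3 and Junb were higher (31.2% of all genes were called higher) and Egr1, Jun and Nr4a1 were lower (31.6% of all genes were called lower), while Jund and Nr4a2 did not pass. The groups were fully separated for 3 genes, with every verapamil-treated library above every control library for Fosl2 and below every control library for Jun and Egr1. Such separation was seen in 10.1% of all genes tested, 4.95% above and 5.18% below the controls.

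**Figure D1:**
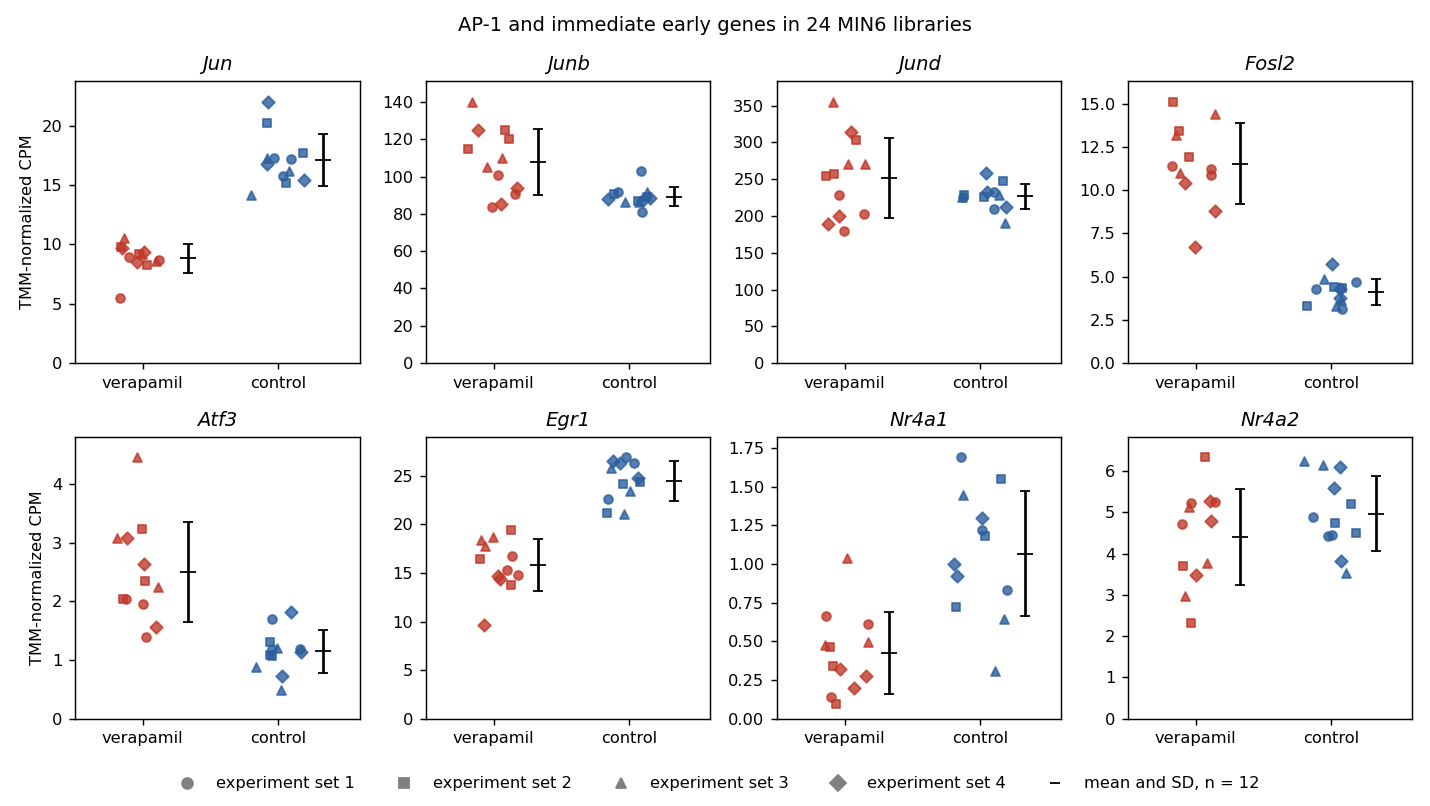
Levels of the 8 genes in each library in CPM, with verapamil-treated libraries on the left and control libraries on the right of each panel. Fosl2 lies at 6.7 to 15.1 CPM in verapamil-treated cells and 3.15 to 5.71 CPM in control cells, and Jun at 5.5 to 10.5 CPM in verapamil-treated cells and 14.2 to 22.0 CPM in control cells, with no overlap in either gene.

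Among the FOS-group genes, only Fosl2 could be measured. It encodes FRA2, a FOS-related partner of JUN proteins that lacks the strong activation domain of FOS. The gene lies on chromosome 5 (GRCm38, 32135801 to 32157842, plus strand). Fosl2 had 6.7 CPM in the lowest, 11.3 CPM at the median and 15.1 CPM in the highest verapamil-treated library, against 3.15, 4.26 and 5.71 CPM in control cells. All 12 verapamil-treated libraries were above all 12 control libraries. The mean was 11.5 ± 2.34 CPM in verapamil-treated cells and 4.13 ± 0.748 CPM in control cells (SD, n = 12 each), and the log2 fold change was 1.47 (SE 0.116, edgeR adjusted p 1.9e-10). The difference was smallest in experiment set 4, where the 3 verapamil-treated libraries had 10.4, 6.7 and 8.8 CPM and the 3 control libraries 3.77, 4.27 and 5.71 CPM, a log2 fold change of 0.91 that did not pass on its own (edgeR adjusted p 0.2). In sets 1, 2 and 3 the log2 fold changes were 1.46, 1.74 and 1.70, and each passed. Of all genes, 27.6%, 57.2%, 43.3% and 0.406% passed in sets 1, 2, 3 and 4 alone.

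The JUN-group genes went separate ways. Jun, the prototype AP-1 subunit and a target of the JNK kinases, is a gene of 1 exon on chromosome 4 (95049034 to 95052222, minus strand). Jun had 5.5, 9.04 and 10.5 CPM as lowest, median and highest value in verapamil-treated cells, against 14.2, 17.0 and 22.0 CPM in control cells. The highest verapamil-treated library thus stayed below the lowest control library. The mean was 8.85 ± 1.23 CPM in verapamil-treated cells and 17.1 ± 2.15 CPM in control cells (SD, n = 12 each), so that verapamil-treated cells held 51.6% of the control level (log2 fold change −0.95, SE 0.0825, edgeR adjusted p 1.1e-09). The fall was present in all 4 experiment sets, with log2 fold changes of −1.13, −0.98, −0.75 and −0.97 in sets 1 to 4. It passed within sets 1, 2 and 3 and had an edgeR adjusted p of 0.094 in set 4.

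Junb, whose product can hold back JUN activity on some promoters, lies on chromosome 8 (84974484 to 84978718, minus strand). Junb had 83.8, 107 and 140 CPM as lowest, median and highest value in verapamil-treated cells, against 81.0, 88.2 and 103 CPM in control cells. Here 7 verapamil-treated libraries were above all controls and the other 5 lay inside the control range. The mean was 108 ± 17.8 CPM in verapamil-treated cells and 89.2 ± 5.18 CPM in control cells (SD, n = 12 each), with a log2 fold change of 0.27 (SE 0.072, edgeR adjusted p 0.0023). The difference was largest in experiment sets 2 and 3, with log2 fold changes of 0.42 and 0.43, whereas sets 1 and 4 gave −0.01 and 0.21. The call was lost without set 2 (0.21, edgeR adjusted p 0.058), where 43.6% of all genes passed.

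Jund, a JUN protein that is present in most resting cells, is a gene of 1 exon on chromosome 8 (70698949 to 70700616, plus strand). Jund had 180, 255 and 355 CPM as lowest, median and highest value in verapamil-treated cells, against 190, 227 and 258 CPM in control cells. Of the verapamil-treated libraries, 5 were above all controls, 2 were below all of them and the other 5 lay between. The log2 fold change of 0.15 (SE 0.0918) had an edgeR adjusted p of 0.15, with values from −0.15 in set 1 to 0.48 in set 3.

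Junb and Jund have unusually GC-rich transcripts, 62.6% and 67.1% GC, at percentiles 98.7 and 99.8 of all genes, and their levels moved with the GC trend of the libraries. In the 3 verapamil-treated libraries with a trend inside the control range, Junb was at 83.8 to 93.7 CPM and its log2 fold change against all controls was −0.03 (edgeR adjusted p 0.68), while Jund was at 180 to 200 CPM with a log2 fold change of −0.27 (adjusted p 0.0023). With each library's GC and length trend removed, the log2 fold changes were −0.33 for Junb (adjusted p 0.00086) and −0.65 for Jund (adjusted p 4.6e-06), and 57.2% of all genes passed. The sign for both genes therefore turned with the treatment of this trend, and its part in their values was not tested otherwise. Fosl2 and Jun kept their direction and their calls in the same 3 libraries, at 1.29 (adjusted p 2.5e-07) and −0.90 (adjusted p 1.6e-06), where 29.7% of all genes passed.

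**Figure D2:**
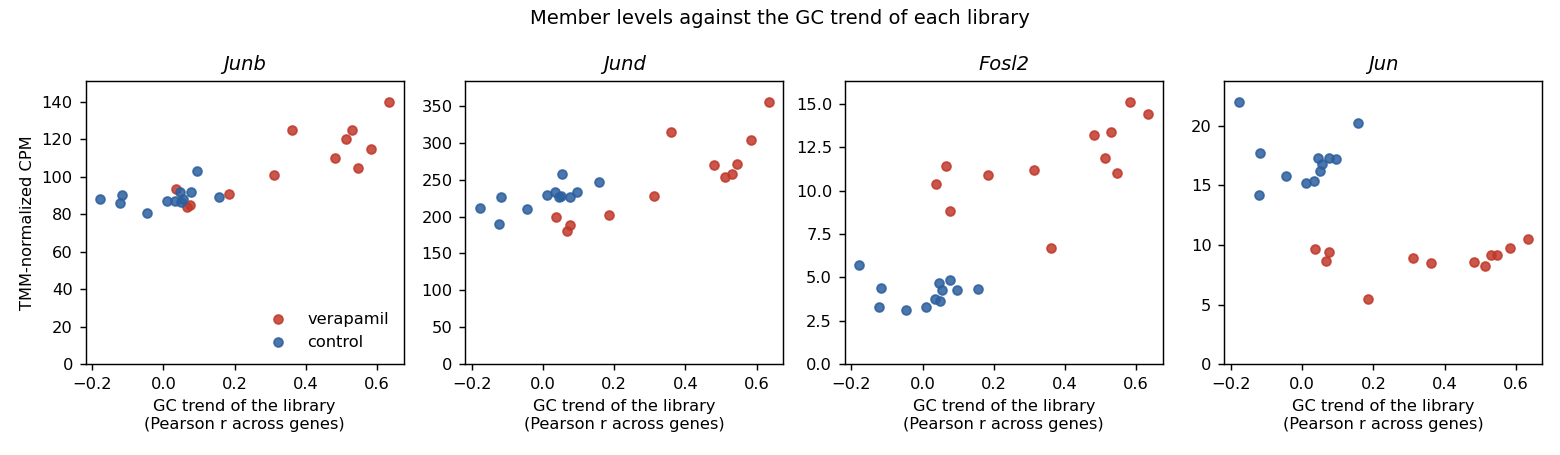
CPM of Junb, Jund, Fosl2 and Jun in each library against the correlation of that library's log2 deviation from the control mean with transcript GC content, verapamil-treated and control libraries as separate markers. Junb and Jund are highest in the verapamil-treated libraries with a steep trend and at control levels or below in the 3 with a trend inside the control range, whereas Fosl2 stays above and Jun below the controls across the whole range.

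Strand also bears on JUN-group counts. Junb overlaps Prdx2 on the opposite strand, and Prdx2 was higher by a log2 fold change of 0.43, while Jund overlaps the gene model Gm11175, which was higher by 0.56. In the 3 libraries with a low GC trend, Prdx2 was at 0.02 (edgeR adjusted p 0.76) and Gm11175 at 0.18 (0.26). With the GC and length trend removed they were at 0.29 (0.00032) and −0.56 (0.017). Jun and Atf3 each overlap a gene on the opposite strand that was not analysed here. The sources used here do not say whether counting used the strand of the reads, so those of these overlapping genes cannot be told apart with certainty.

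Because AP-1 proteins work as dimers, proportions between the genes within each library were compared, which removes the library total. The ratio of Jun counts to Fosl2 counts averaged 0.798 ± 0.208 in verapamil-treated cells and 4.19 ± 0.426 in control cells (SD, n = 12 each). It was 0.503 to 1.27 in verapamil-treated libraries and 3.57 to 5.0 in control libraries. Because Jun lay below and Fosl2 above all controls, this gap followed from their levels and is not a separate result. The share of all gene pairs separated in this way was not computed. The ratio of Jun to Junb counts averaged 0.0835 ± 0.0156 in verapamil-treated cells and 0.192 ± 0.024 in control cells, again without overlap, at 0.0607 to 0.11 against 0.165 to 0.249. A ratio shows unequal change of its members and not which of them changed.

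**Figure D3:**
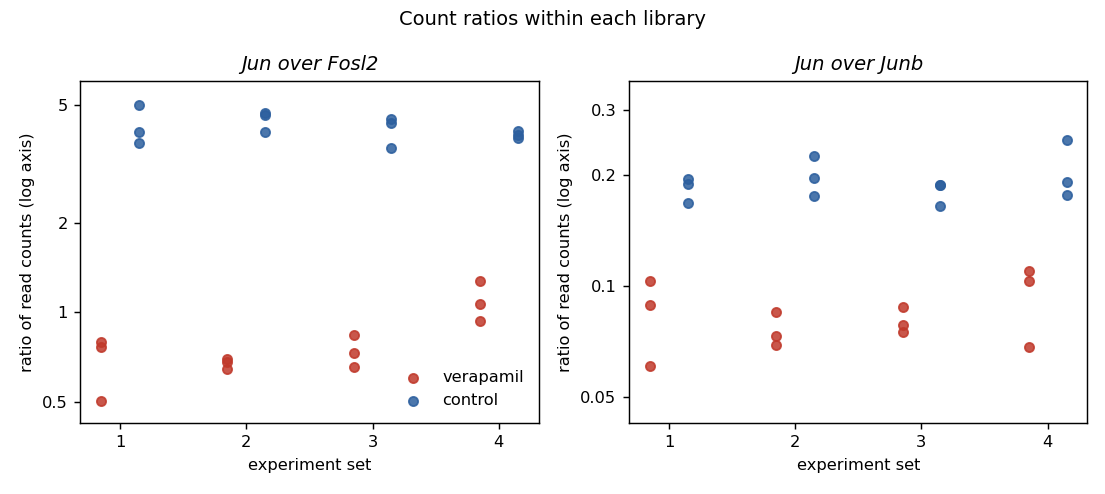
Ratios of counts within each library, by experiment set on the x axis and on a log y axis, with verapamil-treated libraries left of control libraries in each set. The Jun to Fosl2 ratio lies at 0.503 to 1.27 in verapamil-treated libraries and at 3.57 to 5.0 in control libraries, and the Jun to Junb ratio at 0.0607 to 0.11 in verapamil-treated libraries and at 0.165 to 0.249 in control libraries.

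Levels of different genes were set side by side only after division by exon length, as CPM per kb. On that scale Jund was the most abundant of the 8 genes, at 151 ± 32.7 CPM per kb in verapamil-treated cells and 136 ± 10.4 in control cells, followed by Junb at 46.8 and 38.8. Egr1 had 3.53 CPM per kb in verapamil-treated cells and 5.46 in control cells, close to Jun at 2.77 ± 0.385 and 5.37 ± 0.675. In control cells Egr1 and Jun did not differ beyond their spread, and neither did Fosl2 (0.427 CPM per kb) and Atf3 (0.532). In verapamil-treated cells Fosl2 (1.19), Atf3 (1.16) and Nr4a2 (1.09) stood together, and Nr4a1 was lowest in both groups, at 0.121 and 0.304. Of the summed, length-scaled level of Jun, Junb, Jund, Fosl2 and Atf3, Jund made up 74.2% in verapamil-treated cells and 75.0% in control cells. The Jun share was 1.41 ± 0.295% in verapamil-treated cells and 2.97 ± 0.367% in control cells, and all 12 verapamil-treated libraries were below all controls. The Fosl2 share was 0.6% in verapamil-treated cells and 0.236% in control cells, with 11 of 12 verapamil-treated libraries above all controls.

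Atf3, an ATF-group repressor induced by many stresses and known as a target of ATF4, lies on chromosome 1 (191170296 to 191218039, minus strand). Atf3 had 1.39, 2.3 and 4.45 CPM as lowest, median and highest value in verapamil-treated cells, against 0.482, 1.16 and 1.81 CPM in control cells. These were low levels, from 40 to 99 counts in verapamil-treated and 6 to 51 counts in control libraries, and 10 of 12 verapamil-treated libraries were above all controls. The mean was 2.5 ± 0.852 CPM in verapamil-treated cells and 1.15 ± 0.366 CPM in control cells (SD, n = 12 each), and the log2 fold change was 1.09 (SE 0.186, edgeR adjusted p 2.8e-05). Experiment set 1 gave the smallest difference, with 1.39, 2.03 and 1.95 CPM in verapamil-treated libraries and 1.7, 1.18 and 1.18 CPM in control libraries. Set 3 gave the largest, with 2.25, 4.45 and 3.08 CPM in verapamil-treated libraries and 1.2, 0.878 and 0.482 CPM in control libraries. Without sets 2 and 3 the log2 fold change was 0.69 and missed the threshold (edgeR adjusted p 0.054), where 25.5% of all genes passed. In the 3 verapamil-treated libraries with a low GC trend it was 0.79 (adjusted p 0.019).

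Egr1, the zinc finger factor that is induced by glucose and calcium in β-cells, lies on chromosome 18 (34859823 to 34864984, plus strand). Egr1 had 9.69, 15.9 and 19.4 CPM as lowest, median and highest value in verapamil-treated cells, against 21.1, 24.6 and 26.9 CPM in control cells. The groups did not overlap. The mean was 15.8 ± 2.68 CPM in verapamil-treated cells and 24.5 ± 2.04 CPM in control cells (SD, n = 12 each), 64.7% of the control level (log2 fold change −0.63, SE 0.0825, edgeR adjusted p 9.6e-07). The difference was smallest in set 3, with a mean of 18.3 CPM in verapamil-treated cells and 23.4 CPM in control cells, and largest in set 4, with 12.9 CPM in verapamil-treated cells and 25.9 CPM in control cells. In every set all 3 verapamil-treated libraries were below all 3 control libraries, which follows from the separation of the groups. The log2 fold change remained at −0.73 (adjusted p 3.3e-07) in the 3 libraries with a low GC trend.

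The NR4A genes differed from each other. Nr4a1, which encodes NUR77 and is a calcium-induced gene in β-cells, lies on chromosome 15 (101254269 to 101274795, plus strand). Nr4a1 had 0.0923, 0.4 and 1.04 CPM as lowest, median and highest value in verapamil-treated cells, against 0.305, 1.09 and 1.69 CPM in control cells. The libraries held 2 to 30 counts of it in verapamil-treated cells and 8 to 45 in control cells, and 4 verapamil-treated libraries were below all controls. The mean was 0.426 ± 0.264 CPM in verapamil-treated cells and 1.07 ± 0.407 CPM in control cells (SD, n = 12 each), 40.4% of the control level (log2 fold change −1.31, SE 0.286, edgeR adjusted p 0.00044). Set 3 gave the smallest difference, with 1.04, 0.495 and 0.477 CPM in verapamil-treated libraries and 1.45, 0.305 and 0.642 CPM in control libraries. In sets 1, 2 and 4 every verapamil-treated library was below every control library of its set. The share of all genes separated in this way within a set was not computed. Nr4a1 passed on its own in set 2 (edgeR adjusted p 0.011) but not in sets 1 and 4 (0.066 and 0.084).

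Nr4a2, which encodes NURR1, lies on chromosome 2 (57106830 to 57124003, minus strand). Nr4a2 had 2.31, 4.75 and 6.33 CPM as lowest, median and highest value in verapamil-treated cells, against 3.53, 4.81 and 6.24 CPM in control cells. The groups overlapped almost completely, and the log2 fold change of −0.17 (SE 0.134) did not pass (edgeR adjusted p 0.26). The count ratio of Nr4a1 to Nr4a2 averaged 0.101 in verapamil-treated cells and 0.222 in control cells, with ranges of 0.0261 to 0.276 and 0.0497 to 0.347 that overlapped.

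To allow for libraries of a set that may share a culture, counts were also summed per experiment set, 4 sums against 4. Fosl2, Atf3, Junb, Egr1, Jun and Nr4a1 did not overlap between the groups, each with the smallest p that the two-sided exact permutation test can give for this design, 0.0286, and 47.3% of all genes were separated in this way. For Junb the gap was narrow, with 91.5 CPM in the lowest verapamil-treated sum and 91.4 CPM in the highest control sum. Jund and Nr4a2 overlapped (exact permutation p 0.314 and 0.114). The size of the verapamil effect differed between sets for 0 of the 8 genes by edgeR's interaction test, with adjusted p from 0.12 to 0.7, whereas 9.72% of all genes passed it. At an unadjusted p of 0.05, 2 of the 8, Fosl2 and Egr1, passed this test. The share of all genes at that unadjusted threshold was not computed, so nothing was read from this count.

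**Figure D4:**
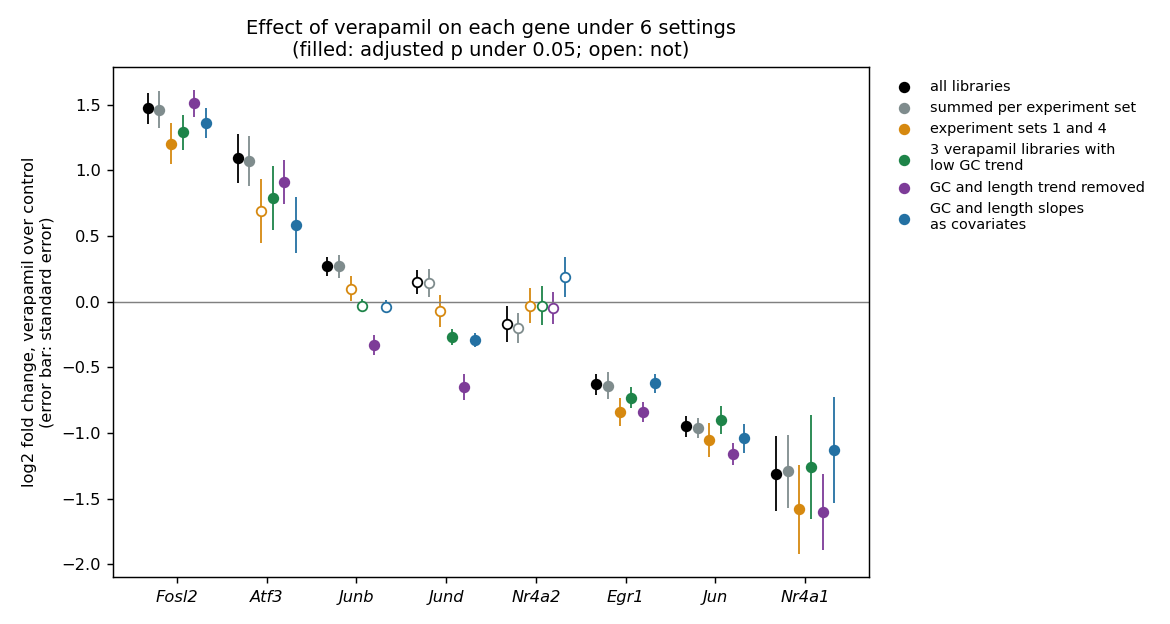
Log2 fold change, verapamil-treated over control, of each gene under the fit of all 24 libraries and under the alternative settings named on the plot, with filled markers where the edgeR adjusted p was under 0.05. Fosl2 and Atf3 lie above 0 and Jun, Egr1 and Nr4a1 below 0 in every setting drawn, while Junb and Jund cross 0.

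Small MAF genes and Jdp2 rose in the fit of all libraries. Of 10 other AP-1 symbols 6 were tested, and 4 were higher, 0 lower and 2 not called. Of all genes tested, 62.8% were called, 31.2% higher and 31.6% lower. The median log2 fold change was 0.34, beside −0.00 for all genes tested. The small MAF genes, which encode leucine zipper proteins without an activation domain, made up 3 of the 4. Maff rose by a log2 fold change of 0.79 (edgeR adjusted p 0.002), Mafk by 0.55 (1.1e-07) and Mafg by 0.20 (6.5e-06). Jdp2, a repressor that dimerises with JUN, rose by 0.48 (adjusted p 5.4e-05). Mafk and Mafg had no overlap between groups, as was seen in 10.1% of all genes tested. In the 3 verapamil-treated libraries with a low GC trend, Mafk and Mafg passed (0.33 and 0.22), while Maff (0.37, adjusted p 0.42) and Jdp2 (0.36, adjusted p 0.063) did not. The same held with the GC and length trend removed, at 0.31 for Mafk, 0.12 for Mafg, 0.38 for Maff (edgeR adjusted p 0.088) and 0.11 for Jdp2 (0.39). With the GC and length slopes as covariates, Maff again did not pass (0.36, adjusted p 0.31), while Jdp2 did (0.39, 0.0094). Atf7 and Atf2 encode ATF proteins that pair with JUN. Atf7 had a log2 fold change of 0.10 (adjusted p 0.24) and passed without the set 4 library that stands apart in length (0.14, edgeR adjusted p 0.0028) and in the 3 libraries with a low GC trend (0.19, 0.0052). Atf2, at −0.38, lay on the threshold (adjusted p 0.05), so the count of 0 lower is not firm. It was called lower in 11 of 23 other settings, DESeq2 and limma-voom among them, and in 5 of the 24 fits that left out 1 library, while it was higher in the 3 libraries with a low GC trend (0.13, adjusted p 0.024).

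The calls of the remaining EGR and NR4A genes and the EGR corepressors depended on the fit. Of 6 symbols 4 were tested, with 0 higher and 1 lower, beside 31.2% higher and 31.6% lower of all genes tested. The median log2 fold change was 0.10. Nr4a3 had a log2 fold change of 0.45 (edgeR adjusted p 0.069), which passed with the GC and length trend removed (0.63, adjusted p 0.0067), with the slopes as covariates (0.99, adjusted p 0.0012) and in 5 of the 24 fits that each left out 1 library, whose values reached 0.52. Egr4 had a log2 fold change of 0.19 (adjusted p 0.28) and was called lower with the trend removed (−0.59, adjusted p 0.007). It did not pass with the slopes as covariates (−0.16, 0.58) or in the 3 libraries with a low GC trend (−0.24, 0.34). Nab1, an EGR corepressor, was lower by a log2 fold change of −0.25 (adjusted p 0.047), a call that ended in 15 of the 24 fits that each left out 1 library. Nab2, the other corepressor, was at 0.01, and at −0.42 with the trend removed (adjusted p 3.9e-06), −0.20 with the slopes as covariates (0.0043) and −0.21 in the 3 libraries with a low GC trend (0.004).

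Among 43 further immediate early and activity-induced genes, 36 were tested, and 14 were higher, 7 lower and 15 not called, with a median log2 fold change of 0.05. The share called was close to the 62.8% of all genes, and nothing particular to the list was read from it. Leaving aside genes that averaged under 1 CPM, the 4 called genes with the largest change were all higher. Sik1, a kinase gene induced through CREB, had a median of 4.32 CPM in verapamil-treated cells and 1.47 CPM in control cells, and rose by a log2 fold change of 1.62 (edgeR adjusted p 3.5e-08). Plk3, a stress-responsive kinase gene, rose by 1.23, the antiproliferative gene Btg1 by 0.87 and Irs2, the insulin receptor substrate that is a CREB target in β-cells, by 0.79. All 4 passed in the 3 libraries with a low GC trend as well. Of the 7 that were lower, the 3 with the largest falls were named after their values were seen. Npas4, a transcription factor gene induced by calcium entry, averaged 0.475 CPM in verapamil-treated cells and 0.904 CPM in control cells (log2 fold change −0.91, edgeR adjusted p 6.1e-05), and passed in the 3 libraries with a low GC trend (−0.79, adjusted p 0.033). Homer1, a scaffold gene, fell by 0.75 on the log2 scale and the zinc finger gene Klf6 by 0.66. In those 3 libraries they were at −0.09 (edgeR adjusted p 0.34) and −0.16 (0.035), and with the slopes as covariates at 0.01 (0.93) and −0.03 (0.72). With the GC and length trend removed both passed, at −0.20 (0.018) and −0.34 (0.00053). The other 4 had log2 fold changes of −0.43 to −0.21.

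Most ATF4 stress genes rose, as Atf3 did. Of 11 ATF4 and CHOP genes that share inducers with Atf3, 9 were tested, and 7 were higher, 1 was lower and 1 was not called. Of all genes tested, 31.2% were higher and 31.6% lower. The median log2 fold change of the list was 0.99. Atf4, the central factor of the integrated stress response, had a median of 664 CPM in verapamil-treated cells and 267 CPM in control cells and rose by a log2 fold change of 1.28 (edgeR adjusted p 1.9e-12). Chac1, a glutathione-degrading enzyme gene and ATF4 target, rose by 2.34, with 9.07 to 24.2 CPM in verapamil-treated cells and 2.52 to 4.46 CPM in control cells. Atf5 rose by 1.33 and Cebpb, a leucine zipper partner of ATF4, by 1.02. None of these 4, chosen as the largest called changes of the list, overlapped between the groups, beside 10.1% of all genes tested. Their log2 fold changes in the 3 libraries with a low GC trend were 1.79 for Chac1, 0.93 for Atf5, 0.91 for Atf4 and 0.53 for Cebpb, and all 4 passed. With the GC and length trend removed, Cebpb had a log2 fold change of 0.18 and did not pass (adjusted p 0.13), and 5 genes of the list were higher.

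**Figure D5:**
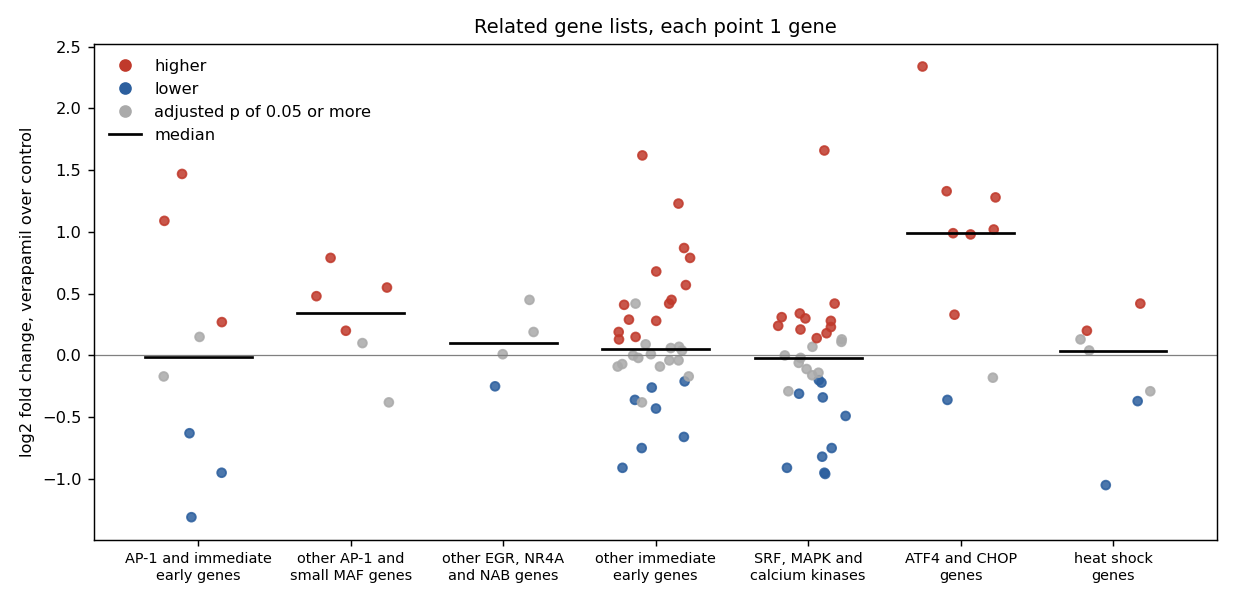
Log2 fold change, verapamil-treated over control, of the tested genes of each list, 1 point per gene, coloured by whether the edgeR adjusted p was under 0.05. The ATF4 and CHOP genes have a median of 0.99 and the other AP-1 genes of 0.34, whereas the 8 AP-1 and immediate early members lie on both sides of 0.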

How the data were processed

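RNA from verapamil-treated and untreated MIN6 cells was sequenced as paired-end mRNA libraries. The submitters' processing notes name bcl2fastq 2.20, Trimmomatic 0.39, HISAT2 2.1.0, HTSeq 0.9.1 and GRCm38. The authors deposited raw counts per gene for 24 libraries, used here without change. Sources differ on the library kit and RNA input, and they state neither the strand setting nor the annotation release. Deposited columns of the authors' own comparison (average log2 CPM, p-values, adjusted p-values and fold changes) were not used. Experiment sets were read from the first digit of each description. 4 columns matched more than 1 sample of their group and were used without a number; they belong to set 4 by elimination.

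Counts were normalised by TMM, filtered (minimum count 10) and tested with edgeR 4.0.16 in R 4.3.3 (quasi-likelihood F test, 12 against 12, no covariates, Benjamini-Hochberg over all genes, threshold 0.05). CPM values used TMM library sizes. Sums per set were compared by an exact permutation test with scipy 1.17.1. Library trends used GENCODE transcripts of GRCm38. The code was tested on simulated data. Alternatives used limma 3.58.1 and DESeq2 1.42.0. The genes named were all 8 members, every tested gene of the other AP-1, EGR and NR4A lists, and, of each other list, up to 4 called genes with the largest change at a mean of at least 1 CPM. The members and lists were chosen with earlier results of these data known, and the motif list was drawn up with the sequences in view. Overlap partners, Npas4, Homer1 and Klf6 were named after their values were seen. Upstream sequence is not shown for Fosl2, Jund and Egr1.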

Additional observations from a re-analysis of the deposited data

Results flagged for a closer look

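The effect of verapamil differed between the 4 experiment sets for 5 of the genes named here, by edgeR's test of the interaction of set and treatment, which 9.72% of all genes passed. For Nab2 the interaction had an adjusted p of 0.041, with log2 fold changes of −0.22, 0.26, 0.06 and −0.10 in sets 1 to 4. For Homer1 it was 0.038, with −0.29, −1.28, −1.54 and −0.35. For Rps6ka3, the kinase RSK2, it was 0.0084, with −0.40, −1.83, −1.93 and −0.39. For Creb1, the calcium and cyclic AMP responsive factor, it was 0.026, with −0.33, −1.69, −1.76 and −0.47. For the chaperone gene Hsp90aa1 it was 0.0042, with −0.60, −2.04, −2.19 and −0.36. Sets 2 and 3, in which Homer1, Rps6ka3, Creb1 and Hsp90aa1 fell most, were also the sets with the steepest GC trend, and the part of that trend was not tested for each gene.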

How the results depend on the processing

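Fosl2, Atf3, Jun, Egr1 and Nr4a1 kept their direction under every alternative run, and leaving out each library in turn gave 3 genes higher and 3 lower every time, with 3630 to 3942 genes higher and 3707 to 4023 lower over all genes, beside 3836 and 3890 in the fit of all libraries. Calls of single members were lost mainly within single sets: Nr4a1 had adjusted p of 0.066, 0.71 and 0.084 in sets 1, 3 and 4 alone, Atf3 0.31 in set 1, and Egr1 0.1 in set 4. In set 4 alone 0 members were higher and 0 lower by edgeR, with 39 genes higher and 11 lower over all genes. At an unadjusted p of 0.05, 5 members passed there, beside 1772 of 12305 genes, and no other tool was run on that set. In set 1 alone 1 member was higher, with 1680 genes higher and 1721 lower, and set 3 alone gave 2445 genes higher. Summing per set gave 3005 genes higher and 2124 lower, and leaving out set 2 gave 2518 lower. Without sets 2 and 3, an alternative chosen after seeing the data, 1 member was higher, with 1653 genes higher and 1482 lower. The 3 verapamil-treated libraries with a GC trend inside the control range, also chosen after seeing the data, gave 1827 higher and 1825 lower. Removing the GC and length trend made 5 members lower and gave 2876 genes higher and 4161 lower. With these slopes as covariates, 1743 genes were lower. The treatment coefficient then had a variance inflation of 1.99.

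The replicate numbers of the labels were not taken to pair the samples. The correlation of deviations was −0.118 to 0.21 over 10 numbered pairs. It was not compared with pairs of unlike number, so it cannot settle whether samples were paired. A fit with the replicate block on those pairs gave 3 members higher and 3 lower, with 3651 genes higher and 3917 lower, and 3872 and 3860 without the block. The block together with trend removal made 5 members lower, namely Jun, Junb, Jund, Egr1 and Nr4a1. In that fit the sign turned for Junb (−0.38), Jund (−0.72), Nr4a2 (0.00), Egr4 (−0.68) and Nab2 (−0.44).

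Signs turned as follows, with the cause not tested. With the trend removed, values were −0.33 for Junb, −0.65 for Jund, −0.59 for Egr4 and −0.42 for Nab2. With slopes as covariates they were −0.04 for Junb, −0.29 for Jund, 0.19 for Nr4a2, 0.30 for Atf2, −0.16 for Egr4, −0.20 for Nab2, 0.18 for Nab1, 0.01 for Homer1 and −0.07 for Dnajb1. In the 3 libraries with a low GC trend they were −0.03 for Junb, −0.27 for Jund, 0.13 for Atf2, −0.24 for Egr4, −0.21 for Nab2, 0.06 for Nab1 and −0.10 for Dnajb1. Set 1 alone gave −0.01 for Junb, −0.15 for Jund, 0.13 for Nr4a2, 0.07 for Atf2, −0.22 for Nab2 and 0.20 for Nab1, and set 4 alone −0.11 for Egr4 and −0.10 for Nab2. Without sets 2 and 3 Jund was at −0.07, Atf2 at 0.00 and Nab2 at −0.16. Nab2 was −0.02 with library size alone and with a filter of 5 CPM, −0.00 with limma-voom, −0.08 without set 2, −0.01 without set 3 and −0.01 to 0.04 over the fits that left out 1 library. Low depth limits Nr4a1 and Atf3, which held as few as 2 and 6 counts in a library.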

Other observations

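Of 34 symbols for SRF, its cofactors and the kinases upstream of immediate early genes, 31 were tested, with 11 higher, 10 lower and 10 not called, and a median log2 fold change of −0.02. These shares were close to the 31.2% higher and 31.6% lower of all genes. Camk4, a calcium and calmodulin dependent kinase that phosphorylates CREB, had 12.4 to 20.3 CPM in verapamil-treated cells and 4.29 to 7.35 CPM in control cells, a log2 fold change of 1.66 (edgeR adjusted p 1e-13) that was 1.69 in the 3 libraries with a low GC trend. Creb1 had 9.27 to 54.7 CPM in verapamil-treated cells and 54.5 to 63.6 CPM in control cells, a log2 fold change of −0.91 (adjusted p 0.001). It was −0.14 in those 3 libraries (edgeR adjusted p 0.031) and −0.42 with the GC and length trend removed (0.00078). With the GC and length slopes as covariates it was −0.05 and did not pass (0.49). Rps6ka3 likewise had a log2 fold change of −0.96 in all libraries and −0.18 in those 3 libraries (edgeR adjusted p 0.00014). It was −0.53 with the trend removed (0.00099) and −0.12 with the slopes as covariates (0.17). Map2k6, a kinase that activates p38, fell by 0.95 on the log2 scale (adjusted p 8.9e-06).

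Heat shock genes, which share inducers with Atf3, showed no common direction. Of 9 symbols 7 were tested, with 2 higher, 2 lower and 3 not called, beside 31.2% higher and 31.6% lower of all genes tested. Hsp90aa1 fell by 1.05 on the log2 scale and Hsph1 by 0.37, whereas Hspe1 and Dnajb1 rose by 0.42 and 0.20. Of these 4 only Hsp90aa1 had fully separated groups, as did 10.1% of all genes tested. In the 3 libraries with a low GC trend the list had 0 genes higher and 1 lower by edgeR, where 29.7% of all genes passed. The log2 fold changes there were −0.34 for Hsp90aa1 (adjusted p 0.00012), −0.11 for Hsph1 (0.28), 0.16 for Hspe1 (0.09) and −0.10 for Dnajb1 (0.066). Of 14 β-cell markers 12 were tested, with 2 higher and 5 lower, where 31.2% and 31.6% of all genes tested were called in these directions. Ins2 fell by 1.05, Slc30a8, the granule zinc transporter, by 0.88 and Iapp by 0.85, while Mafa, a large MAF factor that activates insulin genes, rose by 0.85. Mafa had 1050 to 1510 CPM in verapamil-treated cells and 646 to 766 CPM in control cells. With the GC and length trend removed, 2 of the β-cell markers were higher and 10 lower, where 57.2% of all genes passed. Mafa, with a transcript of 65.0% GC, was then at 0.27 (edgeR adjusted p 0.026), and at 0.21 with the replicate block added (0.1). It was at 0.66 in the 3 libraries with a low GC trend (9.6e-10). Of the markers of other cells, Gcg rose by 0.49 and Sox9 fell by 0.87. Sox9 had 0.58 to 2.27 CPM in verapamil-treated cells and 1.45 to 4.02 CPM in control cells. In the 3 libraries with a low GC trend Gcg was at 0.15 (edgeR adjusted p 0.048) and Sox9 at −0.92 (0.017).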
